A study of Homo sapiens with 5 samples.

Results

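The mRNAs of 10 genes of the BCL2 family were measured by RNA-seq in RPE1 cells, an immortalized line of human retinal pigment epithelial cells labelled as wild type, after 18 h of doxorubicin or of its solvent DMSO. The members were the rows of the deposited count table with the symbols BCL2, BCL2L1, MCL1, BAX, BAK1, BBC3, PMAIP1, BCL2L11, BID and BIK, which were 10 of 26485 genes. Doxorubicin is an anthracycline that intercalates into DNA and poisons topoisomerase II. There were 2 libraries from DMSO, 2 from 0.2 μM doxorubicin and 1 from 0.34 μM doxorubicin, and the methods of the study describe them as biological replicates of 1 cell line. The concentrations are those in the labels of the libraries, while the treatment protocol gives 200 and 340 μM. The 3 doxorubicin libraries were set against the 2 DMSO libraries, and the higher dose was not replicated.

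Proteins of the BCL2 family decide at the outer membrane of the mitochondrion whether a cell enters apoptosis. The pro-survival proteins, here those of BCL2, BCL2L1 (BCL-xL) and MCL1, bind and hold the other members of the family. The effectors BAX and BAK form pores through which cytochrome c leaves the mitochondrion, and the BH3-only proteins, here those of BBC3 (PUMA), PMAIP1 (NOXA), BCL2L11 (BIM), BID and BIK, neutralize the pro-survival proteins or activate the effectors. BBC3, PMAIP1 and BAX are textbook cases of family genes that are induced after DNA damage. Much of the control of the family acts on the proteins, through degradation, cleavage and binding, and mRNA levels do not show it.

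The bases before the transcription start were available from RefSeq (GRCh38.p14) for 8 of the 10 members, in 13 windows of 250 bases, and MCL1 and BIK had none. They were searched for the E-box CACGTG, which reads the same on both strands and was chosen after the BAX window had been seen. A search for 1 other motif is not reported here. The window of BAX is shown because it holds the motif repeatedly, and 1 window of BCL2L1 is shown as an example without the motif. A relation between the motif and the change in mRNA was not tested. Capitals mark the matches. The windows are chr19:48954625-48954874 on the plus strand for BAX and chr20:31723964-31724213 on the minus strand for BCL2L1, each written 5′ to 3′ up to the last base before the start.
BAX: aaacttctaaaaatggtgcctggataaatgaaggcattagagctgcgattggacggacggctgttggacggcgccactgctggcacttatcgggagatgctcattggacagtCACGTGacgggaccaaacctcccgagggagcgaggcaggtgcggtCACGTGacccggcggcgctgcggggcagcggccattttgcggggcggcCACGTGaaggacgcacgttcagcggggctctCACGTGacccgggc
BCL2L1: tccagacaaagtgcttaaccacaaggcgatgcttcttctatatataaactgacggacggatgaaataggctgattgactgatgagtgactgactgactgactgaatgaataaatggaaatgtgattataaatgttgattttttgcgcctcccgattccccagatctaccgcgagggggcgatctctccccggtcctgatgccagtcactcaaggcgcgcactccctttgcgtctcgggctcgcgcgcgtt
In BAX the first bases of the 4 E-boxes lay 138, 93, 45 and 14 bases before the start. Of all 35116 windows of this length in the table, 6.34% held CACGTG at least once and 0.0142% held it 4 times or more. The window of BBC3 held an E-box at 232 bases. In BID 2 overlapping windows held the same E-box, 106 and 47 bases before their starts, and the other BID windows held none. The windows of BCL2, BAK1, PMAIP1 and BCL2L11 did not hold it. A match is a description of the letters and not a bound site, and these windows are too short to speak for the whole regulatory region.

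The total counts on genes were between 23773061 and 36725345 per library, with normalization factors between 0.975 and 1.04. CDKN1A, the DNA damage response gene that encodes the cell cycle inhibitor p21, rose from 276 ± 26.1 CPM (counts scaled to a common library size by TMM; SD, n = 2) in the controls to 2900 ± 500.4 with the drug (SD, n = 3), which checked the labels of the treatment. Of 11 markers of retinal pigment epithelium, 7 had at most 25 counts in every library, RPE65, RLBP1 and TTR among them, while the transcription factor genes MITF and OTX2 had between 601 and 1503. Most markers of the differentiated cell type were thus near absent in both groups. KRT8 and KRT18 were abundant and CDH1 and EPCAM had 0 to 4 counts. Some marker sums moved with the treatment. Those of the 11 retinal pigment epithelium markers and of the 3 mesenchymal markers overlapped between the groups, although VIM was lower in every doxorubicin library. Of the 4 retinal pigment epithelium markers tested, 2 were higher in every doxorubicin library, as 24.3% of all genes tested were. BEST1 was at 0.770 CPM in DMSO and 2.83 in doxorubicin, and PMEL at 0.231 and 1.15. The sum of 4 epithelial markers was 583 and 696 CPM in DMSO and between 970 and 1180 in doxorubicin, and that of 3 leukocyte markers was 0.191 and 0.274 CPM against 1.01 to 2.20, nearly all of it PTPRC, with CD3E at 0 counts in all libraries. The part of these shifts in the results was not tested. In bulk RNA, fewer cells of a kind and less RNA per cell cannot be told apart, and CPM gives each mRNA relative to the others.

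The comparison of doxorubicin with DMSO asks which members of the family change their mRNA level in damaged cells. Of the 10 members, 9 passed the filter on low counts and 2 passed the threshold, an adjusted p below 0.01 in edgeR's quasi-likelihood test over all genes tested. Both were higher after doxorubicin, and neither call held without DMSO replicate 1 or without DMSO replicate 2. They were BBC3, which encodes a direct antagonist of all pro-survival proteins, and BCL2L1, which encodes a pro-survival protein. Of all 14187 genes tested, 4.02% passed the same threshold in either direction, 1.29% as higher and 2.73% as lower. With DESeq2 on the same groups 4 members passed, BBC3, BCL2L1 and BAX as higher and BCL2 as lower, where 14.1% of all genes did (6.37% higher, 7.72% lower). The median log2 fold change of the 9 members was 0.69, with 6 above 0 and 3 below, against 0.013 over all genes tested. In 8 of the 9 members the groups of libraries did not overlap, with doxorubicin higher in 6 and lower in 2. The same was so for 47.7% of all genes tested, 24.3% higher and 23.4% lower. A separation of the libraries alone was therefore common in these data.

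**Figure D1:**
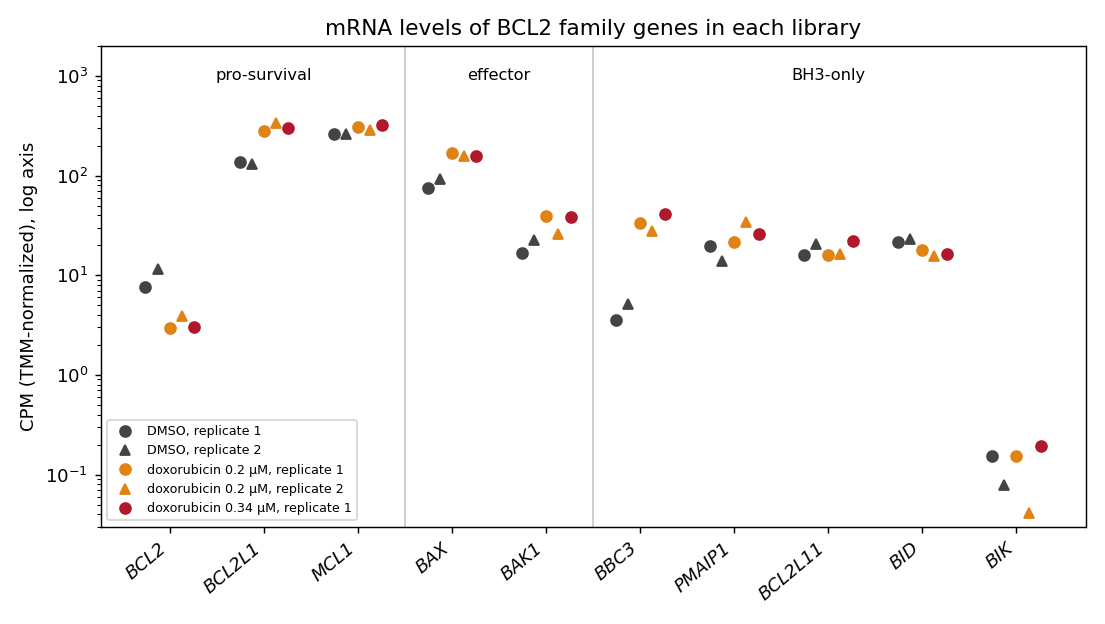
mRNA level of each of the 10 BCL2 family genes in each of the 5 libraries, as TMM-normalized CPM on a log axis, with the genes ordered by class and the symbols marking treatment, dose and replicate. The doxorubicin points of BBC3 and BCL2L1 lie well above the DMSO points and those of BCL2 below them, while the points of BCL2L11 overlap.

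**Figure D2:**
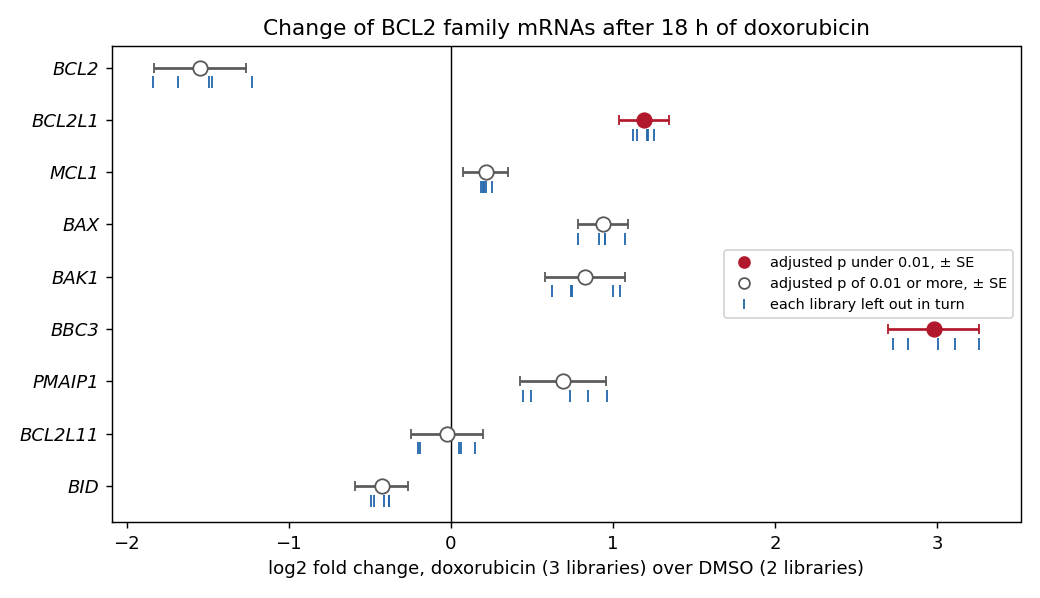
log2 fold change of the 9 members tested, doxorubicin over DMSO, with the SE in edgeR as bars and, below each point, the values with each library left out in turn. BBC3 at 2.98 and BCL2L1 at 1.19 are filled, since their adjusted p was under 0.01, and only for BCL2L11 do the values with a library left out fall on both sides of 0.

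Among the pro-survival genes, BCL2L1 rose, MCL1 was close to its DMSO level, and BCL2 was low and had its lowest values in doxorubicin. BCL2L1 (chr20:31664452-31723963 of GRCh38, which overlaps BCL2L1-AS1 and LOC124904883) encodes BCL-xL, which holds BAX and BAK in check. The library kit kept the strand of the RNA, but whether the counting used it is not given, so reads of the antisense gene may be included. BCL2L1 was at 136 and 131 CPM in DMSO, at 282 and 336 CPM in 0.2 μM and at 300.1 CPM in 0.34 μM doxorubicin. All doxorubicin libraries lay above both DMSO libraries, and the gap was larger than the spread within either group. The mean rose 2.29-fold, from 134 ± 3.78 (SD, n = 2) to 306 ± 27.3 CPM (SD, n = 3), which is a log2 fold change of 1.19 (SE, the standard error of the fit, 0.15; adjusted p = 0.00552 in edgeR). The log2 fold change was 1.12 to 1.25 when any 1 library was dropped, but the call was lost in all 5 of these fits, with adjusted p-values between 0.0153 and 0.0298 in edgeR.

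BCL2 (chr18:63123346-63320090, which overlaps LOC124904379), the founding pro-survival gene of the family, was at 7.59 and 11.7 CPM in DMSO and at 2.94 and 3.91 CPM in 0.2 μM and 3.03 CPM in 0.34 μM doxorubicin. These levels rest on 76 to 298 counts per library. The groups did not overlap and the DMSO libraries were further apart than the doxorubicin libraries. The log2 fold change was -1.55 (SE 0.28) and did not pass the threshold in edgeR (adjusted p = 0.0171), while it passed with DESeq2 (adjusted p = 4.50e-05). MCL1 (chr1:150574558-150579610), whose product is a short-lived pro-survival protein, was at 263 and 264 CPM in DMSO and at 308, 289 and 319.6 CPM in doxorubicin, the last at 0.34 μM. The doxorubicin libraries were all higher, but by a small amount, and the log2 fold change of 0.21 (SE 0.14, adjusted p = 0.355 in edgeR) did not pass the threshold.

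Both effector genes were higher in every doxorubicin library, as 24.3% of all genes tested were, and neither passed the threshold in edgeR. BAX (chr19:48954875-48961798), the cytosolic effector that moves to mitochondria in dying cells, was at 75.6 and 92.9 CPM in DMSO, at 167 and 158 CPM in 0.2 μM and at 158 CPM in 0.34 μM doxorubicin. The doxorubicin libraries lay close together and well above the DMSO libraries. The mean was 84.3 ± 12.3 CPM (SD, n = 2) in DMSO and 161 ± 4.99 (SD, n = 3) in doxorubicin, a ratio of 1.91. Its log2 fold change of 0.94 (SE 0.15) lay just outside the threshold (adjusted p = 0.0120 in edgeR) and passed it with DESeq2 (adjusted p = 9.66e-06). BAK1 (chr6:33572552-33580276) encodes BAK, the effector that resides on the mitochondrial membrane. It was at 16.6 and 22.4 CPM in DMSO, at 39.1 and 26.1 CPM in 0.2 μM and at 38.5 CPM in 0.34 μM doxorubicin. The groups did not overlap, but replicate 2 of 0.2 μM lay nearer to the DMSO libraries than to the other doxorubicin libraries. The log2 fold change was 0.83 (SE 0.25, adjusted p = 0.0709 in edgeR and 0.0201 in DESeq2).

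The BH3-only genes did not move together. Of 5 members, BBC3 rose, PMAIP1, BCL2L11 and BID did not pass the threshold, and BIK was too low to be tested. BBC3 (chr19:47220824-47232860, which overlaps MIR3190 and MIR3191) encodes PUMA. It had 93 and 132 counts in DMSO, 866 and 671 in 0.2 μM and 1508 in 0.34 μM doxorubicin, which correspond to 3.55 and 5.17 CPM, to 33.5 and 27.9 CPM and to 41.6 CPM. All doxorubicin libraries lay far above both DMSO libraries. The mean rose 7.87-fold, from 4.36 ± 1.15 CPM (SD, n = 2) to 34.3 ± 6.87 (SD, n = 3), with a log2 fold change of 2.98 (SE 0.28, adjusted p = 0.0018 in edgeR). Dropping any 1 library gave values of 2.73 to 3.26. The call held without any 1 of the doxorubicin libraries and was lost without DMSO replicate 1 (adjusted p = 0.0141 in edgeR) or DMSO replicate 2 (adjusted p = 0.0150 in edgeR).

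PMAIP1 (chr18:59899996-59904305) encodes NOXA, which binds MCL1 and marks it for degradation. It was at 19.8 and 13.9 CPM in DMSO, at 21.5 and 34.5 CPM in 0.2 μM and at 25.9 CPM in 0.34 μM doxorubicin. The groups did not overlap, but the lowest doxorubicin library was close to the higher DMSO library, and the replicates of either treatment differed by more than that gap. The log2 fold change was 0.69 (SE 0.26, adjusted p = 0.132 in edgeR and 0.0761 in DESeq2). BID (chr22:17734138-17774665, which overlaps MIR3198-1), whose product links death receptors to mitochondria after cleavage by caspase-8, was at 21.4 and 23.1 CPM in DMSO and at 17.7, 15.5 and 16.4 CPM in doxorubicin. All doxorubicin libraries were lower, with a log2 fold change of -0.43 (SE 0.16, adjusted p = 0.133 in edgeR).

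BCL2L11 (chr2:111120914-111168445) encodes BIM, a strong activator of the effectors that is induced by growth factor withdrawal through FOXO factors. It was at 16.1 and 20.6 CPM in DMSO, at 15.9 and 16.2 CPM in 0.2 μM and at 21.9 CPM in 0.34 μM doxorubicin. It was the only tested member whose groups overlapped, and its log2 fold change of -0.03 (SE 0.22, adjusted p = 0.954 in edgeR) took either sign over the alternatives. BIK (chr22:43110750-43129712), whose product sits on the endoplasmic reticulum, had 4 and 2 counts in DMSO, 4 and 1 in 0.2 μM and 7 in 0.34 μM doxorubicin. These values lie about the limit of 3 counts, so that no difference was detectable at this depth. Of the 5 BH3-only genes, the textbook damage response genes BBC3 and PMAIP1 thus had the highest fold changes, and PMAIP1 did so without passing the threshold.

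Levels were compared between members per kilobase of exon, with the length of the MANE Select transcript of each gene. In DMSO the order by mean CPM per kilobase was led by BAX at 106 ± 15.5 (SD, n = 2), MCL1 at 66.7 ± 0.256 and BCL2L1 at 52.0 ± 1.47. BID, BAK1 and PMAIP1 followed at 10.2 ± 0.58, 8.98 ± 1.88 and 8.89 ± 2.19, and the differences between these 3 were smaller than their spread. BCL2L11 was at 3.60 ± 0.63, BBC3 at 2.36 ± 0.621, BCL2 at 1.40 ± 0.419 and BIK last. The mRNA of BCL2L1 exceeded that of BCL2, the gene that gave the family its name, by a ratio of 48.1 and 30.04 in the DMSO libraries and of 256.5, 229.6 and 265 in the doxorubicin libraries. In doxorubicin the order was BAX at 203 ± 6.28 (SD, n = 3), BCL2L1 at 119 ± 10.6, MCL1 at 77.3 ± 3.94 and BBC3 at 18.6 ± 3.72 CPM per kilobase. BBC3 moved from place 8 to place 4, and BAK1 at 15.9 ± 3.38 and PMAIP1 at 14.4 ± 3.47 stood next to it within their spread. With the merged exons of all transcripts as the length, an alternative added after seeing the data, BCL2L1 led the order in doxorubicin and MCL1 in DMSO, and BBC3 moved from place 8 to place 6.

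The summed mRNA of all 3 classes was higher in every doxorubicin library. For the pro-survival genes the sum was 121 and 119.5 CPM per kilobase in DMSO and 188, 204 and 198 in doxorubicin, and the means had a ratio of 1.64. For the effectors it was 103 and 127 against 228, 211 and 217, a ratio of 1.90. For the BH3-only genes it was 25.5 and 24.9 against 40.9, 43.6 and 48.2, a ratio of 1.76. The 3 ratios were thus close to each other, and the groups did not overlap in any of the sums. Of single genes tested, 24.3% were higher without overlap. Most of each rise came from 1 member. From DMSO to doxorubicin, mean CPM per kilobase went from 52.0 to 119 for BCL2L1, from 106 to 203 for BAX and from 2.36 to 18.6 for BBC3. BCL2 and BID were lower in every doxorubicin library, so that the sums do not describe a rise of all members.

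Within the classes the make-up was different. MCL1 made up 55.1% and 56.0% of the pro-survival sum in DMSO and 41.5%, 35.8% and 40.9% in doxorubicin. BCL2L1 made up 43.95% and 42.6% in DMSO and 58.3%, 63.9% and 58.9% in doxorubicin. The larger of both shares thus passed from MCL1 to BCL2L1 in every library, and BCL2 held at most 1.42%. BBC3 made up 7.54% and 11.3% of the BH3-only sum in DMSO and 44.3%, 34.6% and 46.7% in doxorubicin, and BID made up 38.5% and 42.7% in DMSO and 19.9%, 16.3% and 15.7% in doxorubicin. PMAIP1 held between 27.7% and 41.7% in all libraries, with overlap between the groups, and was the largest BH3-only member in DMSO replicate 1 and in replicate 2 of 0.2 μM. BAX made up between 91.8% and 94.3% of the effector sum in all libraries, with overlap between the groups. This share depends on the length of BAX. With merged exons BAX was at 32.6 and BAK1 at 8.81 CPM per kilobase in DMSO. With merged exon lengths the mean share of BCL2L1 was 42.5% in DMSO and 59.6% in doxorubicin and that of BBC3 8.13% and 36.2%. PMAIP1 had the larger mean share in doxorubicin with these lengths, 41.8%, but BBC3 led it in 2 of the 3 doxorubicin libraries (39.1% against 36.6% and 40.7% against 37.0%) and PMAIP1 led only in replicate 2 of 0.2 μM (51.75% against 28.7%).

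**Figure D3:**
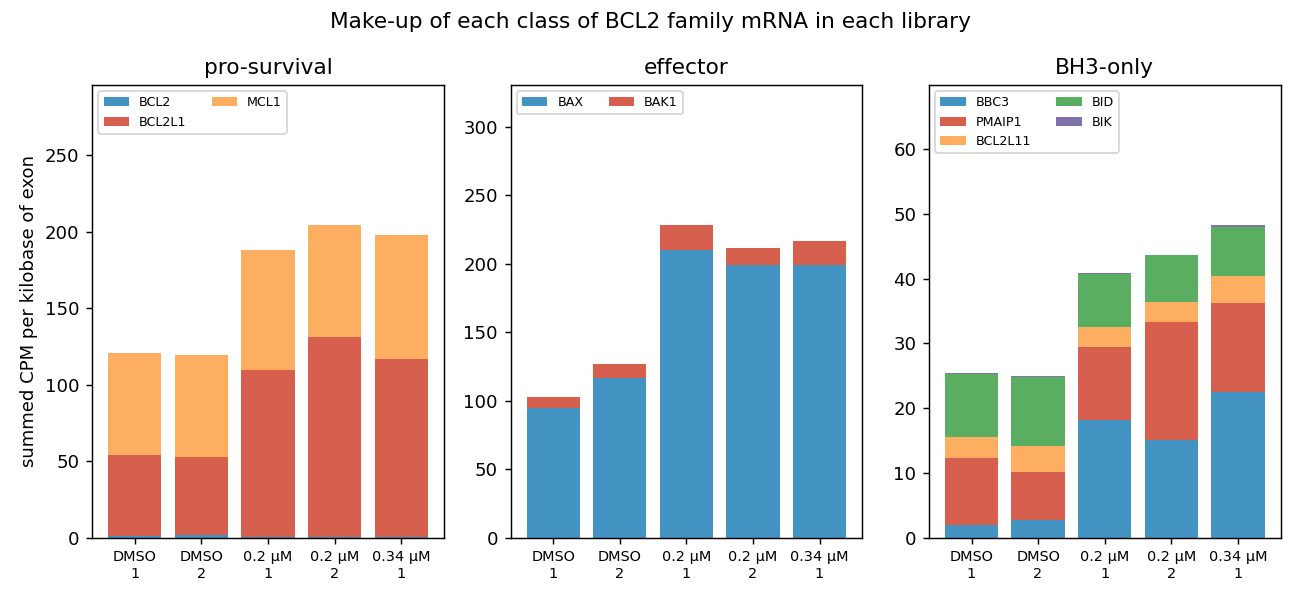
Summed CPM per kilobase of exon of the pro-survival, effector and BH3-only genes in each of the 5 libraries, as stacked bars from 0 with 1 colour per gene and a separate scale for each class. All 3 sums are higher in the doxorubicin libraries, BCL2L1 takes the larger part of the pro-survival bar there, and BBC3 takes 7.54% and 11.3% of the BH3-only bar in DMSO and between 34.6% and 46.7% in doxorubicin.

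The balance of death-promoting to pro-survival mRNA, taken as the sum of effectors and BH3-only genes over the pro-survival sum in CPM per kilobase, was 1.06 and 1.27 in DMSO and 1.43, 1.25 and 1.34 in doxorubicin. The groups overlapped, since replicate 2 of 0.2 μM lay below DMSO replicate 2. The place of the balance against 1 depends on the length taken for BAX, 795 bases in the MANE Select transcript and 2587 in merged exons. With merged exons BAX was at 32.6 CPM per kilobase in DMSO and 62.3 in doxorubicin, and BCL2L1 was at 31.9 and 72.9. Values above 1 therefore do not show that death-promoting mRNA exceeded pro-survival mRNA. The difference of the mean log2 balance was 0.20, with a within-group SD of 0.133, and no test was made on this score over chosen members. It was 0.07 without DMSO replicate 1, 0.33 without DMSO replicate 2 and 0.18 with merged exon lengths. Without BCL2L1 it was 0.72, and it was 0.87 when the mean log2 CPM of the 9 tested members replaced the sums. Ratios between single genes separated the groups more clearly in some pairs. They restate the changes of single members given above and add no further evidence. BCL2L1 to MCL1 was 0.797 and 0.762 in DMSO and 1.41, 1.78 and 1.44 in doxorubicin. BBC3 to MCL1 was 0.0289 and 0.0419 in DMSO and 0.233, 0.207 and 0.278 in doxorubicin, and its means differed by a ratio of 6.76. BBC3 to BCL2L1 was 0.0362 and 0.0550 in DMSO and 0.166, 0.116 and 0.193 in doxorubicin, a smaller ratio of means of 3.47. BAX to BCL2, a pair often read as an index of apoptosis, was 86.2 and 68.9 in DMSO and 492, 351 and 452 in doxorubicin. BAX to BCL2L1 was 1.79 and 2.30 in DMSO and 1.92, 1.53 and 1.71 in doxorubicin, with overlap. The 2 readings of BAX against a pro-survival partner therefore differed, with a ratio of means of 5.56 against BCL2 and 0.840 against BCL2L1. PMAIP1 to MCL1 overlapped as well, at 0.157 and 0.110 in DMSO and 0.146, 0.249 and 0.169 in doxorubicin.

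**Figure D4:**
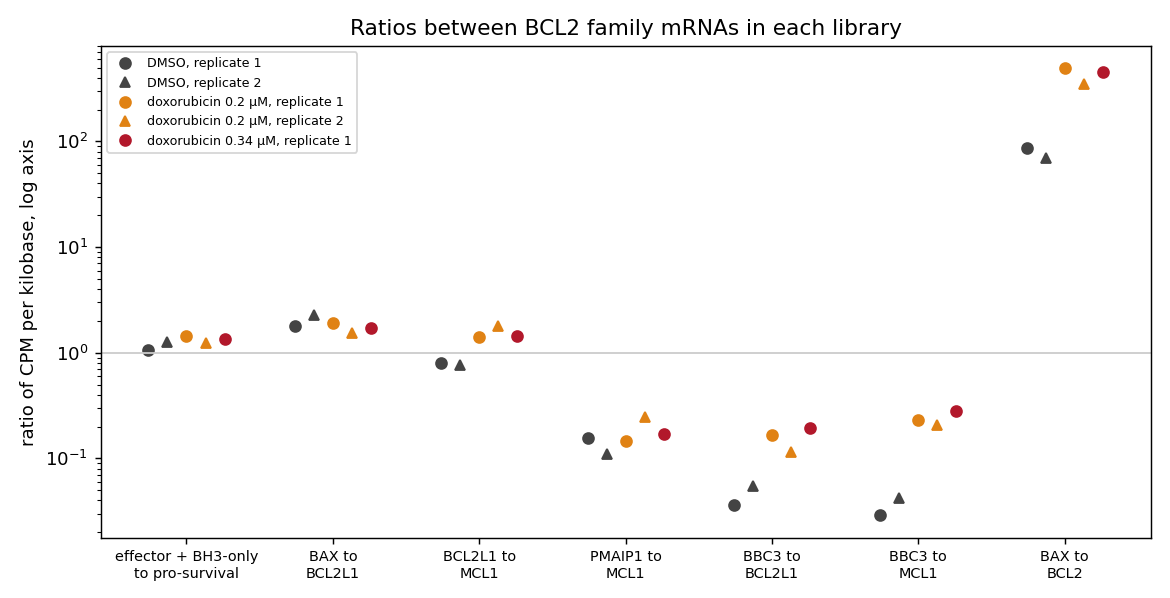
Ratio of CPM per kilobase between classes or pairs of BCL2 family genes in each of the 5 libraries, on a log axis with a line at equal levels. Lengths are those of the MANE Select transcript, and the place of the class balance and of BAX to BCL2L1 against the line depends on that choice. The DMSO and doxorubicin points overlap for the balance of the classes, for BAX to BCL2L1 and for PMAIP1 to MCL1, and are apart for BCL2L1 to MCL1, for BBC3 to either pro-survival partner and for BAX to BCL2.

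The doses shared their controls and are given side by side. Against the same 2 DMSO libraries, in a fit of 3 conditions, BBC3 had a log2 fold change of 2.82 (SE 0.30) at 0.2 μM and 3.25 (SE 0.34) at 0.34 μM and passed the threshold at both, with adjusted p-values of 0.00487 and 0.00655 in edgeR. It was the only member to do so at either dose, where 1.21% and 0.627% of all genes tested passed. BCL2L1 was at 1.21 and 1.17, BAX at 0.95 and 0.91 and BCL2 at -1.49 and -1.67 on the log2 scale at 0.2 and 0.34 μM. The difference of 0.34 μM from 0.2 μM was between -0.17 (BCL2) and 0.45 (BCL2L11) on the log2 scale over the 9 members, and was 0.44 (SE 0.33) for BBC3 and -0.04 (SE 0.27) for BCL2L1. None of the 9 passed the threshold in edgeR or DESeq2, and 0 had an unadjusted p under 0.05 in either. Over all genes tested 0 passed it in either tool (0%), with 22 (0.155%) at an unadjusted p under 0.05 in edgeR and 33 (0.159%) in DESeq2. These shares lie far below the rate that a limit of 0.05 gives where nothing differs. The comparison was thus very conservative, and a count of 0 among the members carries little information. The SEs of the members were between 0.26 and 0.48, and the comparison rests on 1 library at 0.34 μM, so that it does not show that the doses acted alike.

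The other homologues of the family, 11 in number, had 6 tested members, with 2 at an unadjusted p under 0.05 in edgeR, as 30.8% of all genes tested were. Of the 6, 0 passed the threshold in edgeR, where 4.02% of all genes tested did. With DESeq2 2 homologues passed, 1 as higher and 1 as lower, where 14.1% of all genes did. BOK, an effector related to BAX and BAK, was at 45.9 ± 14.5 CPM (SD, n = 2) in DMSO and 84.1 ± 10.7 (SD, n = 3) in doxorubicin, with a log2 fold change of 0.87 (SE 0.23, adjusted p = 0.0527 in edgeR and 0.00826 in DESeq2). BCL2L12, an atypical member of the family, was at 13.4 ± 6.15 (SD, n = 2) and 5.03 ± 0.360 CPM (SD, n = 3), with a log2 fold change of -1.41 (SE 0.31, adjusted p = 0.0303 in edgeR and 6.07e-04 in DESeq2). BCL2A1, BCL2L10, HRK, BCL2L14 and BCL2L15 had between 0 and 8 counts in any library and were not tested. BOK, BAX and BAK1 were each higher in every doxorubicin library, as 24.3% of all genes tested were, and none passed the threshold in edgeR.

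The 15 listed genes of the mitochondrial apoptosis machinery were all tested. Among them are those of cytochrome c, the apoptosome, caspases and their inhibitors and the VDAC channels. Not all act downstream of the family, since the list includes CASP8, whose product cleaves BID. Of the 15, 0 passed the threshold in edgeR or DESeq2, where 4.02% and 14.1% of all genes tested did. In edgeR 3 had an unadjusted p under 0.05, as 30.8% of all genes tested had. With 15 genes these counts do not set the machinery apart from all genes. The median log2 fold change was 0.037, against 0.013 over all genes tested. The values ran from -0.42 for VDAC1 (SE 0.13, adjusted p = 0.0830 in edgeR), a channel of the outer membrane, to 0.69 for CASP9 (SE 0.22, adjusted p = 0.0806 in edgeR), the initiator caspase of the apoptosome. CASP9 was at 6.04 CPM in DMSO and 9.79 in doxorubicin. Among 11 regulators of BCL2 family genes and proteins, 9 were tested. Of these, 4 had an unadjusted p under 0.05 in edgeR, as 30.8% of all genes tested had. With DESeq2 2 regulators passed the threshold, where 14.1% of all genes did. In edgeR 1 passed, where 4.02% of all genes tested did. This was MDM2, a ubiquitin ligase gene of the DNA damage response, which rose with a log2 fold change of 2.19, at 125 ± 3.54 CPM in DMSO (SD, n = 2) and 571 ± 125.5 in doxorubicin (SD, n = 3) and an adjusted p of 0.00246 in edgeR. FBXW7, a subunit of a ubiquitin ligase for MCL1, was at 13.3 and 29.2 CPM, with a log2 fold change of 1.13 (SE 0.18), an adjusted p of 0.0110 in edgeR and one of 2.00e-06 in DESeq2. Of the 9 regulators tested, 7 had a log2 fold change above 0 and 2 below. The lowest was that of HUWE1 at -0.49 (SE 0.14, adjusted p = 0.0688 in edgeR and 0.0103 in DESeq2).

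**Figure D5:**
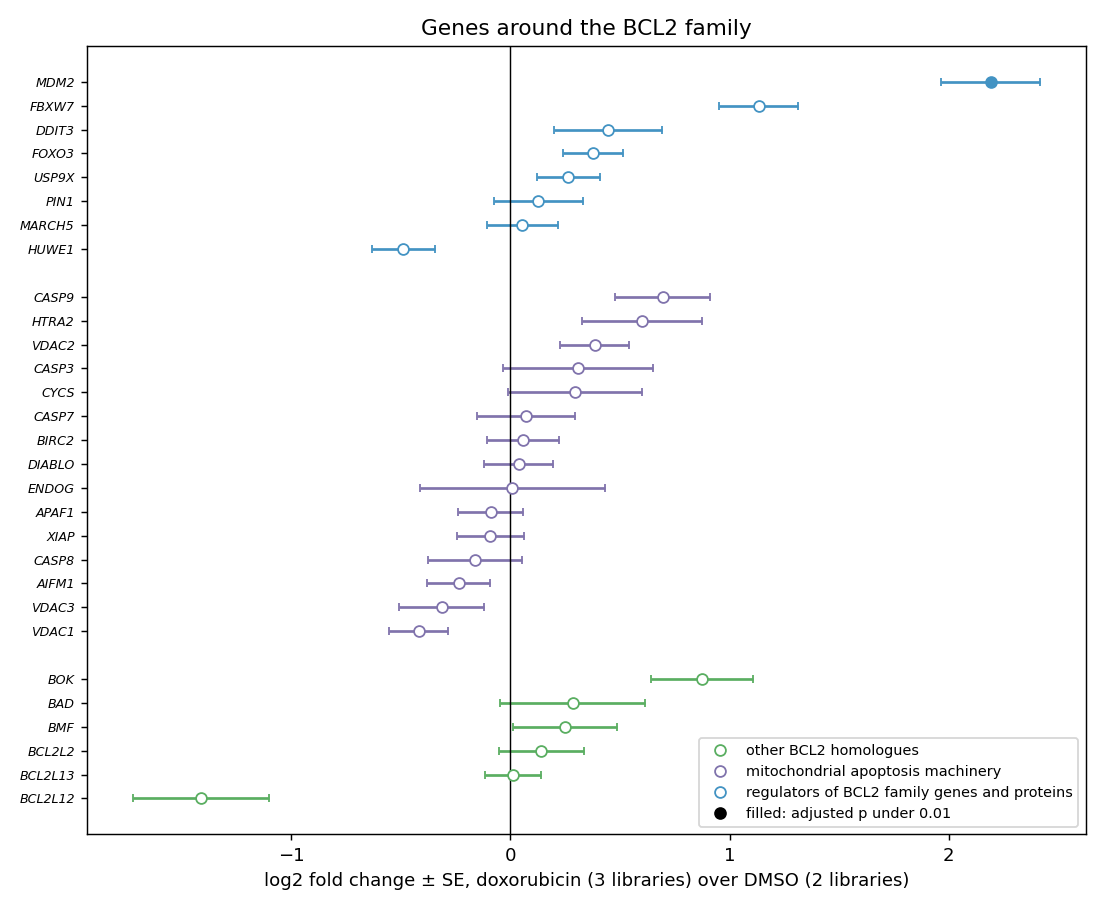
log2 fold change with SE in edgeR, doxorubicin over DMSO, of the tested genes among other BCL2 homologues, the mitochondrial apoptosis machinery and regulators of the family, with 1 regulator left out. Only MDM2 at 2.19 is filled for an adjusted p under 0.01, and the machinery genes lie between -0.42 and 0.69.

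The patterns of the members that rose were compared with those of 11747 other genes over the 5 libraries, by the root mean square difference of log2 CPM centred on its mean. The nearest to BCL2L1 were RPL23AP7, a ribosomal protein pseudogene, at 0.0325, FIG4, a phosphoinositide phosphatase gene, at 0.0494 and FSTL3, a follistatin-like gene, at 0.0674. RPL23AP7 is a copy of a ribosomal protein gene and its counts are uncertain. The nearest to BBC3 were LINC00319 at 0.161, ALS2CL at 0.205 and THSD1 at 0.214. The neighbours of BCL2L1 were thus closer to it than those of BBC3 were, and with 5 libraries in 2 main groups such likeness mostly describes the step between DMSO and doxorubicin.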

How the data were processed

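Poly-A RNA of 5 RPE1 libraries was sequenced in paired-end mode. The authors aligned the reads with STAR (hg38) and obtained counts per gene with featureCounts of Rsubread on the iGenomes annotation, and deposited these counts without normalization. Not given in the sources used here are tool versions, the strand setting and how multi-mapping reads were treated. A second deposited table holds the authors' own comparison (fold changes and p-values) and was not used.

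Counts of 26485 genes were tested with edgeR 4.0.16 in R 4.3.3 (quasi-likelihood test, TMM normalization, default filter with a minimum count of 10, which kept 14187 genes), with 3 doxorubicin against 2 DMSO libraries and no covariates. Genes passed at p below 0.01 after Benjamini-Hochberg adjustment over all genes tested. Standard errors were derived from the log2 fold change and its F statistic. The doses were compared as a contrast in a fit of 3 conditions, in which the lone 0.34 μM library is assumed to vary like the others. DESeq2 1.42.0, limma voom (limma 3.58.1), other scalings, no filter, thinned counts, a replicate block and leaving out each library were the alternatives. The code was tested on simulated data.

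The total of 23773061 to 36725345 counts per library sets the precision of low genes, and a count of 3 was taken as the limit of detection, for counting error only. Libraries of 1 condition differed far beyond sampling noise (chi-square per degree of freedom of 117 and 75.3) and were counted as separate. CPM per kilobase used the exon length of the MANE Select transcript from GENCODE annotation lifted to GRCh37, of which only lengths were taken. Gene positions and promoter windows are those of RefSeq for GRCh38.p14.

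The members and the gene lists were chosen with earlier results of these data known. Named were all members, genes of the other lists past the threshold in edgeR or DESeq2, otherwise the 2 with the largest absolute fold change of a list, and the 3 genes nearest in pattern to each member that passed, among genes whose log2 CPM (prior count 2) averaged 1 or more. Values of some genes of these lists are not reported here.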

Additional observations from a re-analysis of the deposited data

How the results depend on the processing

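Of the members, BBC3 passed the threshold in 14 of 16 alternatives, BCL2L1 in 7, BCL2 and BAX in 3 each and the others in 0, and the signs of all but BCL2L11 held. Besides DESeq2, BCL2 and BAX passed in edgeR without the filter (adjusted p = 0.00779 and 0.00635). They also passed in edgeR with the replicate block in the 0.2 μM and DMSO libraries (adjusted p = 0.00332 and 0.00551). The fit without the 0.34 μM library is the same as that of 0.2 μM and DMSO without the replicate block. It is counted as 2 alternatives here. The count of members past it, 2, was 4 with DESeq2, without the filter, with the replicate block and at a threshold of 0.05, 1 in each contrast of the fit of 3 conditions and without the block, and 0 to 1 with a library left out. The count of all genes, 571, was 2026 with DESeq2, 1020 without the filter, 1927 at 0.05, 323 for the mean of the doses, 171 at 0.2 μM and 89 at 0.34 μM in the fit of 3 conditions, and 49 to 215 with a library left out. In the 0.2 μM and DMSO libraries alone it was 1249 with the replicate block and 178 without. Replicate numbers were shared by 2 pairs, whose deviations correlated with r = 0.528 across 14187 genes, which does not establish a pairing. The count of other homologues, 0, was 2 with DESeq2, 1 with the block and 0 with any library left out, that of the machinery 0 throughout, and that of regulators, 1, was 2 with DESeq2, upper quartile scaling, no filter or the block, 0 at 0.34 μM and 0 to 1 with a library left out. The log2 difference of the balance, 0.20, was 0.87 as a difference of mean log2 CPM, which weights all 9 members equally, and 0.72 without BCL2L1, and 0.07 to 0.33 with a library left out. BCL2L11, at -0.03, took values of 0.021 with upper quartile scaling, 0.032 for the mean of the doses and 0.26 at 0.34 μM, and ran from -0.20 to 0.15 with a library left out. With a 0.2 μM library left out, the log2 difference between the doses ran from -0.34 to 0.048 for BCL2, from -0.13 to 0.094 for BCL2L1, from -0.075 to 0.028 for BAX, from -0.018 to 0.59 for BAK1, from -0.38 to 0.27 for PMAIP1 and from -0.11 to 0.11 for BID. Except where fewer libraries or another threshold make the change, the cause was not tested. Depth limits BIK and the 5 untested homologues.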
